A study of Mus musculus with 6 samples.

Results

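The enzymes of glycolysis and of the tricarboxylic acid (TCA) cycle were described in single islet cells of WT and β14-3-3ζ–KO mice. They were taken by name from a list of enzymes, 39 genes of the 32285 in the deposited tables. They comprise 13 glycolytic enzymes, lactate dehydrogenase B, 4 subunits of the pyruvate dehydrogenase complex, 11 genes of the TCA cycle, 3 isocitrate or aconitate enzymes outside the NAD-linked step, 3 malic enzymes and 4 enzymes of the shuttles that carry reducing equivalents into mitochondria. The question was whether these transcripts differed in β cells without 14-3-3ζ, and how they were spread over the cell types of the islet.

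Islets came from 3 mice of each genotype, WT and β14-3-3ζ–KO, at an age of 12 to 14 weeks and labelled C57/BL6, with 1 library per mouse. The KO mice carried Ins1-CreThor and Ywhaz alleles with LoxP sites around exon 4. The WT mice were littermates that, by the study's methods, also carried Cre, so that both genotypes shared the transgene. Cre was driven from the insulin 1 locus, and the deletion is therefore confined by design to β cells and other cells that have expressed Ins1. Islets were hand-picked, kept in culture overnight and depleted of dead cells, and each library holds the cells of 1 animal.

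Glycolysis splits glucose into pyruvate in the cytosol. Pyruvate dehydrogenase turns pyruvate into acetyl-CoA, which the TCA cycle oxidises in mitochondria. The β cell is known for coupling this flow to insulin release. A rise in blood glucose speeds glycolysis, mitochondria make ATP, ATP closes potassium channels, and calcium entry triggers exocytosis. β cells are also known for very low lactate dehydrogenase A and lactate transport, and for strong glycerol phosphate and malate-aspartate shuttles.

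Before the values, promoters of 3 enzymes that act one after another in lower glycolysis are shown, because Eno1 and Pgk1 had the lowest p-values of the glycolytic members in KO against WT β cells and Pgam1 catalyses the step between them. Each is the 250 bases before the RefSeq start in build GRCm38.p6, none overlaps an annotated transcript, and capitals mark ACGTG on either strand, the core letters of a hypoxia response element. These letters overlap the E-box CACGTG.
Pgk1, chrX:106186850-106187099, plus strand: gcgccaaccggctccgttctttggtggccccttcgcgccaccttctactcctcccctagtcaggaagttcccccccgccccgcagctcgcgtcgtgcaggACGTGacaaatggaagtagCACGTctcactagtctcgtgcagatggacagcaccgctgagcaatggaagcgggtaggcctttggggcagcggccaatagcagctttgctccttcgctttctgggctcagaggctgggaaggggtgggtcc
Pgam1, chr19:41911621-41911870, plus strand: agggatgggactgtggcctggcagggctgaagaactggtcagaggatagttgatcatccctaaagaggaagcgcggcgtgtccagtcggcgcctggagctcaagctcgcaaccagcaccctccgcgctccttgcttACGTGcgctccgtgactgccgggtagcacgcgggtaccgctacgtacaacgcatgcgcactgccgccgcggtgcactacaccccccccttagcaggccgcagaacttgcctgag
Eno1, chr4:150236458-150236707, plus strand, the first of its 3 listed promoters: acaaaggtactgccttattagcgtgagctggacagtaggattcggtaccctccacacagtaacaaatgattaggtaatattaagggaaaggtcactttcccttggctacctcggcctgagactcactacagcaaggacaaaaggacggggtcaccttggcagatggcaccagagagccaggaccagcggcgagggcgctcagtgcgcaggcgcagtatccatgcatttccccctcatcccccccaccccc
The Pgk1 window held ACGTG once on each strand, the Pgam1 window held it once, and none of the 3 Eno1 windows held it. The letters were in 18 of 54 promoters of the 37 members listed, or 33.3%, and 6 of the 18 belonged to Ogdh. Of 32851 promoters of all genes, 16.6% held them. Among the glycolytic members the share was 31.8% of 22 promoters, and among the pyruvate dehydrogenase and TCA cycle members it was 42.1% of 19, which rests on Ogdh, since without it 2 of 13, or 15.4%, held them. These counts describe letters only.

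The 6 libraries held 74083947 to 98294915 UMIs (unique molecular identifiers, each counting 1 captured RNA molecule) in 4400 to 10722 barcodes, and 25207 of 43445 barcodes passed the filters. Pairs of libraries shared 7 to 27 barcode sequences. Cells were named from fixed markers as β cell–like (5898 cells, 805 to 1227 per library), α cell–like (679), δ cell–like (575), endothelial-like (1009), macrophage-like (491) and stellate-like (309, and 20 in WT 3). In β cell–like cells Ins1, Ins2 and Iapp were found in 100% and Mafa in 95.2%, while the δ cell factor Hhex was found in 1.66% and endothelial Pecam1 in 3.48%. The hormone genes of the neighbours were found in most β cells at low level, Gcg in 99.9% at 793 CPM and Sst in 92.8% at 130 CPM. Ins2 was likewise found in 100% of α, δ, endothelial, macrophage and stellate cells, so its level and not its detection sets β cells apart. It stood at 346455 CPM in β cells, against 16226 in δ cells, the lowest of these types, and 52704 in stellate cells, the highest. B (3113), T (2091), Ppy-led (269), dendritic (257) and ductal cells (160) were also named. Each of these had fewer than 20 cells in some library and is not compared here. Another 10356 cells could not be named, most of them shallow, and are not compared either. The stellate-like cells may be mixed, since Pdgfrb was found in 69.6% and Col1a1 in 41.4% of them. The Schwann cell genes Ngfr and Sox10 were found in 15.2% and 11.7%. The types below are called β, α, δ, endothelial, macrophage and stellate cells for short.

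Values are CPM, the usual depth-scaled count of a gene in the summed cells of a type in a library, with the library total adjusted by the trimmed mean of M values (TMM). They sum many cells, so fewer molecules per cell and fewer cells with the transcript cannot be told apart. Each ± is the SD over the 3 libraries of a genotype, or over 6 where all libraries are used. Nothing in the labels ties equal replicate numbers to a litter or a day.

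The deleted gene was checked first. Ywhaz stood at 143, 161 and 154 CPM in β cells of the WT libraries and at 17.9, 17.9 and 17.6 CPM in those of the KO libraries. Its level fell by 3.10 on the log2 scale (SE 0.0747, adjusted p = 5.28e-07, edgeR's quasi-likelihood F test, Benjamini-Hochberg adjusted). In the other 5 types the log2 difference lay between -0.19 and 0.02, and none was called. The genotype comparison used only those KO β cells in which no Ywhaz UMI was counted, as the study did. This left 725, 694 and 612 KO cells against 805, 869 and 926 WT cells.

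In β cells, no glycolytic, pyruvate dehydrogenase, TCA cycle or shuttle gene passed the test between the genotypes. Of the 39 members 37 had a UMI in more than 15% of cells of either genotype and were tested. Of these, 0 were called at an adjusted p under 0.05 with a log2 fold change beyond 0.1. The background was 0.0107% of all 9347 genes, which is Ywhaz alone. Its KO count is 0 by the choice of KO cells, so its call was fixed in advance, and no other gene was called. The lowest adjusted p among members was 0.879 (edgeR's quasi-likelihood F test, Benjamini-Hochberg adjusted). At an unadjusted p under 0.05 there were 3 members, Eno1, Idh2 and Dld, against 4.83% of all genes. DESeq2 also called 0 members and had 3 below an unadjusted 0.05, which were Eno1, Idh2 and Pgk1 but not Dld. The log2 fold change was above 0 for 19 members and below 0 for 18, beside 51.1% of all genes above 0, and the median was 0.00069 against 0.00305 over all genes. Same-numbered libraries of the genotypes deviated together in β cells, and in a fit blocked on that number 9 members were below an unadjusted 0.05, against 12.6% of all genes, and 0 were called, against 0.118%.

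**Figure D1:**
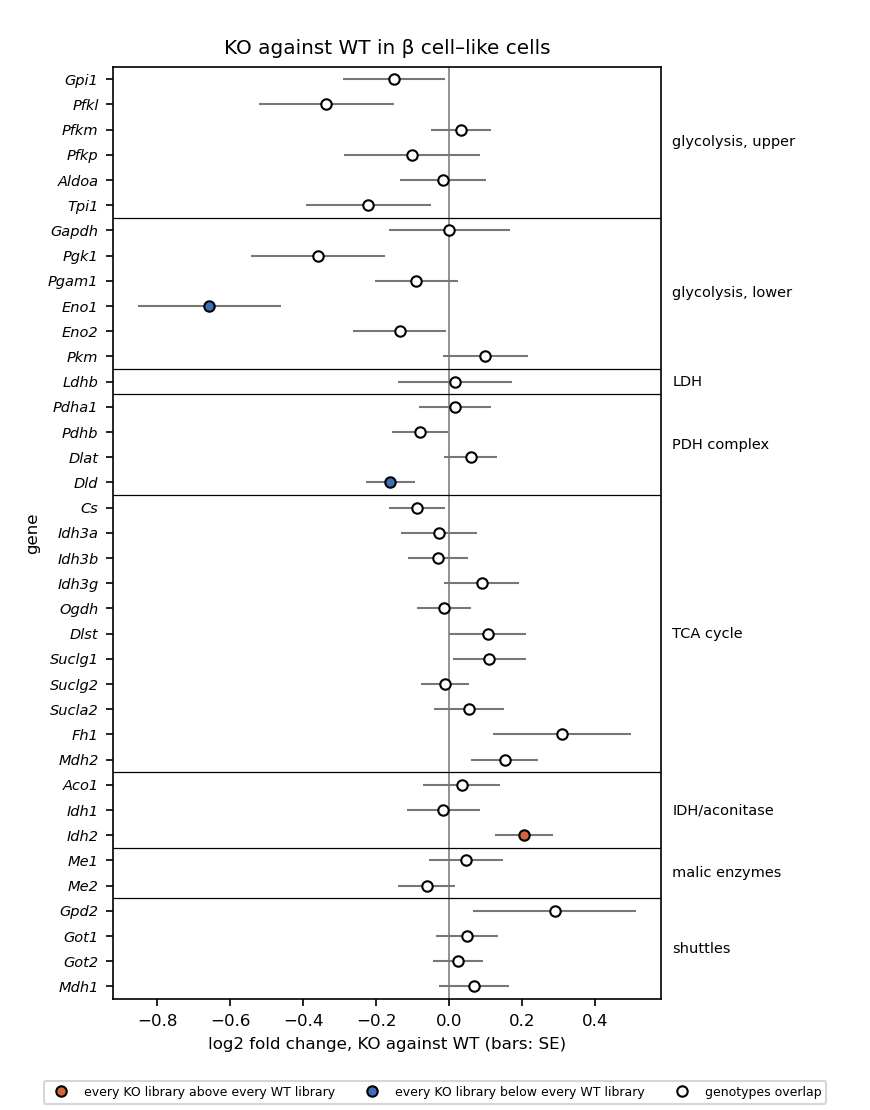
Log2 fold change of each of the 37 tested members in KO against WT β cells (horizontal axis, bars are SE), ordered by role on the vertical axis; filled points are members whose 3 KO libraries all lay on one side of the 3 WT libraries. Only Eno1, Dld and Idh2 are filled, and the points lie between -0.66 and 0.31.

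Upper glycolysis, from glucose 6-phosphate to the triose phosphates, had 1 member above 0 and 5 below, with a median log2 fold change of -0.13. Pfkl, Pfkm and Pfkp encode the liver, muscle and platelet subunits of phosphofructokinase, the committed step. Pfkl stood at 31.5, 34.3 and 21.1 CPM in WT and 26.9, 19.2 and 22.4 in KO, a log2 difference of -0.34 (SE 0.185). Pfkm was even across libraries, at 12.2, 12.3 and 11.9 CPM in WT and 12.0, 13.0 and 12.3 in KO (0.03, SE 0.0822). Pfkp stood at 26.2, 34.1 and 19.5 CPM in WT and 28.4, 23.4 and 22.3 in KO (-0.10, SE 0.187). The genotypes overlapped for all 3 subunits, and for Pfkl and Pfkp the spread came mostly from the WT libraries, where WT 2 was highest and WT 3 lowest.

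Of the other upper enzymes, Gpi1, which interconverts glucose and fructose 6-phosphate, averaged 91.0 ± 16.6 CPM in WT and 81.9 ± 10.0 in KO. The aldolase Aldoa averaged 332.9 ± 46.9 and 328.9 ± 29.1, and triose phosphate isomerase, Tpi1, 95.6 ± 22.0 and 81.9 ± 12.4. Aldoc, the brain aldolase, was below the filter, with a UMI in 13.6% of WT and 11.2% of KO cells and 900 UMIs in all β cells. A second row of the tables also bears the name Aldoa and held 8 UMIs in all kept cells against 133392 in the row used.

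Lower glycolysis, from glyceraldehyde phosphate to pyruvate, had 2 members above 0 and 4 below, with a median of -0.11. Gapdh had the most UMIs of all members, at 348, 487 and 339 CPM in WT and 343, 472 and 360 in KO, and the genotypes did not separate (0.00, SE 0.167). Pyruvate kinase, Pkm, stood at 287, 353 and 311 CPM in WT and 305, 391 and 323 in KO (0.10, SE 0.117). Both were highest in replicate 2 of either genotype.

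Eno1, which encodes the ubiquitous enolase (chr4:150236721-150248879, plus strand, GRCm38), had the lowest p of all members. It stood at 30.5, 39.6 and 27.9 CPM in WT and at 24.1, 14.3 and 23.2 CPM in KO. Every KO library was below every WT library, as for Dld and for 5.71% of all genes. The log2 difference was -0.66 (SE 0.196, adjusted p = 0.879 by edgeR's quasi-likelihood test, and 0.182 with the replicate block), so the difference did not pass the test. It was carried most by KO 2, without which it was -0.46. Eno1b, a near copy of the same protein, could share reads with Eno1; its rows held 617 UMIs against 15039 for Eno1 in all kept cells, and in β cells it made up 2.26 to 5.41% of both. The neuronal enolase Eno2 averaged 23.7 ± 2.02 CPM in WT and 21.5 ± 3.78 in KO.

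Pgk1 (chrX:106187100-106203699, plus strand), phosphoglycerate kinase, which makes ATP from bisphosphoglycerate, stood at 113, 114 and 67.1 CPM in WT and at 82.9, 75.2 and 70.5 in KO, with a log2 difference of -0.36 (SE 0.183, adjusted p = 0.879 by edgeR's quasi-likelihood test). WT 1 and WT 2 lay above all KO libraries and WT 3 below them, so the genotypes overlapped. Its neighbour Pgam1, phosphoglycerate mutase, averaged 96.4 ± 13.9 CPM in WT and 90.5 ± 7.51 in KO. Lactate dehydrogenase B, Ldhb, was low in both, at 8.99 ± 0.598 and 9.16 ± 2.06 CPM.

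Most glycolytic transcripts ranked the libraries in a similar order. Of the 12 tested glycolytic members, 7 were highest in WT 2, 3 in WT 1 and 2 in KO 2, while 8 were lowest in WT 3, 3 in KO 2 and 1 in WT 1. Their summed level was 1538, 1772 and 1328 CPM in WT and 1488, 1609 and 1381 in KO. The WT libraries thus held both the highest and the lowest sum, and the KO libraries lay between them. The sum over the 15 pyruvate dehydrogenase and TCA cycle genes was 677, 745 and 688 CPM in WT and 692, 797 and 708 in KO. Of those 15, 8 were highest in KO 2, 4 in WT 2, 2 in KO 1 and 1 in WT 1, while 6 were lowest in WT 1.

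**Figure D2:**
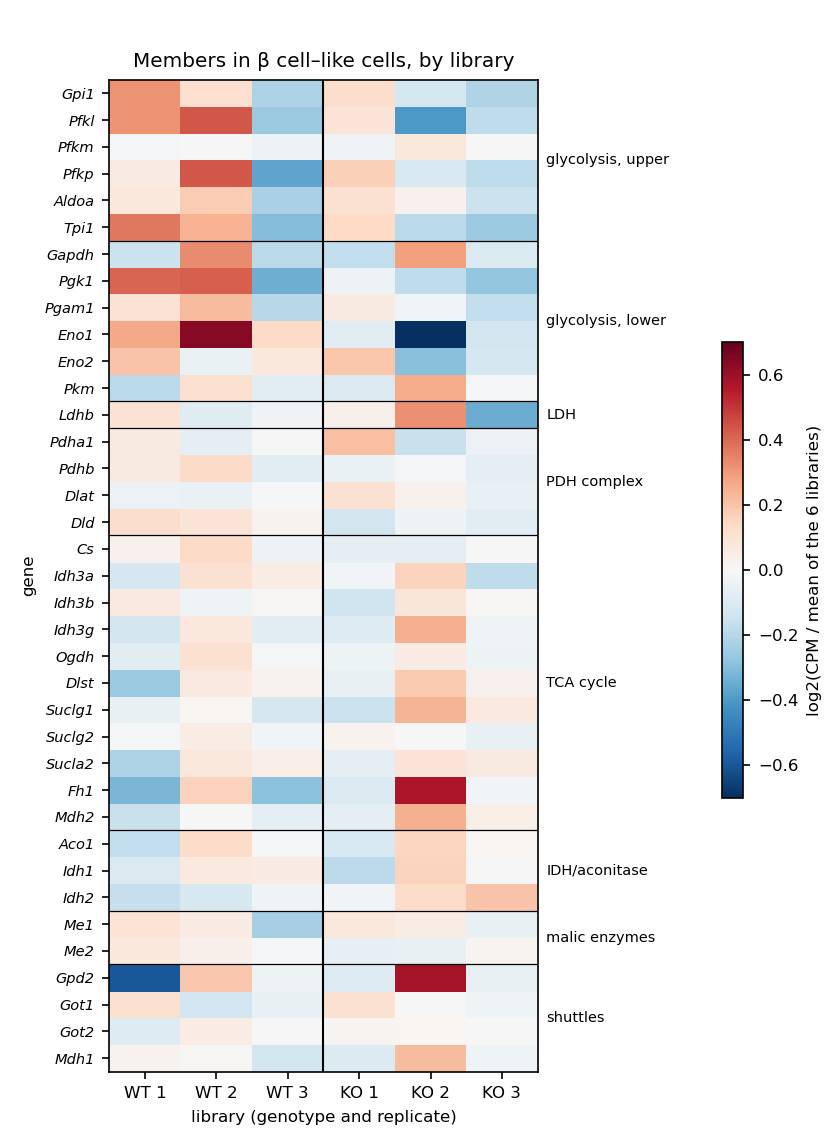
Each tested member (rows, by role) in the β cells of each library (columns, genotype and replicate), coloured by log2 CPM minus its mean over the 6 libraries. Most glycolytic rows are red in WT 2 and blue in WT 3, where 8 of 12 have their lowest value, and colours stop at 0.7 in either direction.

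The pyruvate dehydrogenase complex had 2 members above 0 and 2 below, with a median of -0.03. Pdha1, the catalytic α subunit that kinases switch off, stood at 44.1, 40.4 and 42.3 CPM in WT and 48.9, 38.0 and 41.1 in KO (0.02, SE 0.098). Dld (chr12:31331277-31351453, minus strand), the lipoamide dehydrogenase subunit that the complex shares with the 2-oxoglutarate dehydrogenase complex, stood at 40.7, 39.7 and 37.9 CPM in WT and 34.1, 36.3 and 35.4 in KO. Each KO value of Dld lay below each WT value, but the step was small, at -0.16 on the log2 scale (SE 0.0676, adjusted p = 0.879 by edgeR's quasi-likelihood test). Pdhb averaged 49.6 ± 3.70 CPM in WT and 46.9 ± 0.986 in KO, and Dlat 30.9 ± 0.497 and 32.2 ± 1.77.

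The TCA cycle had 6 members above 0 and 5 below, with a median of 0.05. Citrate synthase, Cs, which takes acetyl-CoA into the cycle, stood at 27.4, 29.5 and 26.2 CPM in WT and 25.6, 25.6 and 26.8 in KO (-0.09, SE 0.0774). Idh3a, the catalytic subunit of NAD-linked isocitrate dehydrogenase, stood at 23.8, 27.8 and 26.7 CPM in WT and 25.4, 28.7 and 22.8 in KO (-0.03, SE 0.104). Ogdh, the 2-oxoglutarate dehydrogenase, stood at 88.5, 100.1 and 92.3 CPM in WT and 90.7, 96.8 and 90.8 in KO (-0.01, SE 0.0736). These 3 enzymes control the rate of the cycle, and each one overlapped between the genotypes.

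Malate dehydrogenase 2, Mdh2, which closes the cycle, had one of the 6 lowest p-values. It stood at 88.1, 98.1 and 93.9 CPM in WT and 94.0, 117 and 101 in KO, with a log2 difference of 0.15 (SE 0.0921). KO 2 and KO 3 were above all WT libraries, and KO 1 lay at the level of WT 3. Fumarase, Fh1 (chr1:175600374-175625635, minus strand), averaged 66.0 ± 12.9 CPM in WT and 81.9 ± 21.9 in KO (0.31, SE 0.190, the highest of all members). Its values were higher in KO than in WT at each replicate number, 67.5 against 57.9, 107 against 81.0 and 71.3 against 59.3 CPM, and its adjusted p was 0.879 without and 0.126 with the replicate block (edgeR's quasi-likelihood test), the lowest of any member in that fit.

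The other cycle genes were closer. Idh3b averaged 29.2 ± 1.04 CPM in WT and 28.6 ± 2.25 in KO, and Idh3g, a regulatory subunit, 37.3 ± 2.75 and 39.7 ± 5.15. Dlst averaged 28.7 ± 3.38 and 30.9 ± 2.57. Of the succinyl-CoA ligase subunits, Suclg1 averaged 71.4 ± 3.14 and 77.2 ± 10.3, Suclg2 36.9 ± 1.06 and 36.6 ± 1.00, and Sucla2 30.7 ± 3.36 and 31.9 ± 1.76 CPM. Their log2 fold changes lay between -0.03 and 0.11.

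Idh2 (chr7:80094846-80115392, minus strand), the mitochondrial NADP-linked isocitrate dehydrogenase that supplies reducing power, was the single member with every KO library above every WT library, a pattern of 5.77% of all genes. It stood at 71.9, 74.4 and 79.0 CPM in WT and 79.5, 87.9 and 92.3 in KO, a log2 difference of 0.20 (SE 0.0793, adjusted p = 0.879 by edgeR's quasi-likelihood test, and 0.219 with the replicate block). KO 1 exceeded WT 3 by less than 1 CPM. The cytosolic Idh1 averaged 29.2 ± 1.88 CPM in WT and 29.0 ± 3.34 in KO, and the cytosolic aconitase Aco1 14.7 ± 1.51 and 15.1 ± 1.33. The malic enzymes, which return malate to pyruvate and make NADPH or NADH, averaged 27.0 ± 3.22 and 27.8 ± 1.30 CPM for cytosolic Me1 and 14.8 ± 0.449 and 14.2 ± 0.442 for mitochondrial Me2. Me3 was below the filter, with a UMI in 4.77% of WT and 3.40% of KO cells.

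All 4 shuttle enzymes had log2 fold changes above 0, with a median of 0.06 and none called. Gpd2, the mitochondrial glycerol phosphate dehydrogenase, had the largest SE of all members, at 56.0, 96.3 and 82.3 CPM in WT and 79.3, 127 and 81.4 in KO (0.29, SE 0.224). In either genotype it was highest in replicate 2. The cytosolic malate dehydrogenase Mdh1 averaged 162.5 ± 9.20 CPM in WT and 170.4 ± 20.3 in KO, and the aspartate aminotransferases 32.4 ± 2.81 and 33.5 ± 1.73 for Got1 and 56.6 ± 2.79 and 57.5 ± 0.304 for Got2.

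Around these enzymes, 41 further genes of the pathway were listed by name, among them pyruvate carriers, pyruvate dehydrogenase kinases, succinate dehydrogenase and mitochondrial carriers. Of the 41, 27 were tested and 0 were called in β cells by edgeR's quasi-likelihood test, with 16 above 0 and 11 below and a median of 0.02. At an unadjusted p under 0.05 there was 1, the mitochondrial pyruvate carrier subunit Mpc2, at 55.6, 58.8 and 58.9 CPM in WT and 62.2, 81.7 and 68.3 in KO (0.29, SE 0.101). Its partner Mpc1 stood at 35.7, 45.5 and 41.7 CPM in WT and 39.1, 66.6 and 47.9 in KO (0.32, SE 0.177). The genotypes did not overlap for Mpc2 and did for Mpc1, and KO 2 was highest for both. Pdk1, a kinase that switches off pyruvate dehydrogenase, had a log2 difference of -0.22 (SE 0.165), and Pck2, mitochondrial PEP carboxykinase, one of -0.19 (SE 0.141).

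The same comparison in the other cell types, which the Ins1 driver is not meant to reach, called 0 members in each of the 5 types, with 33 to 37 members tested. The backgrounds were 0% of genes in α, δ, endothelial and stellate cells and 0.0139% in macrophages. At an unadjusted p under 0.05 there were 2 members in α cells against 3.56% of all genes, 2 in δ cells against 3.38%, 5 in endothelial cells against 3.29%, 4 in macrophages against 5.77% and 0 in stellate cells against 1.59%. DESeq2 called 0 members in each type, with 1, 0, 1, 1 and 0 below an unadjusted 0.05 in the same order.

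Eno1 was again the member with the lowest p in α, δ, macrophage and stellate cells. It stood at 28.4, 40.4 and 26.2 CPM in WT α cells and 24.4, 14.5 and 18.2 in KO α cells, a log2 difference of -0.78 (SE 0.219). In δ cells it stood at 30.6, 47.1 and 35.7 CPM in WT and 29.7, 19.8 and 27.9 in KO (-0.48, SE 0.198). The KO libraries lay below the WT libraries in both types, narrowly so in δ cells, and in each KO 2 was lowest.

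In macrophages Eno1 stood at 242, 264 and 223 CPM in WT and 165, 112 and 181 in KO, with a log2 difference of -0.69 (SE 0.171, adjusted p = 0.84 by edgeR's quasi-likelihood test). Same-numbered libraries deviated together in macrophages as well, and with the replicate block Eno1 passed the test there (log2 fold change -0.71, adjusted p = 0.0122, edgeR's quasi-likelihood test), 1 member against 0.583% of all genes in that fit. Endothelial cells held 121, 185 and 89.8 CPM in WT and 111, 35.8 and 76.7 in KO (-0.84, SE 0.355), and stellate cells 118, 145 and 62.1 in WT and 85.5, 43.9 and 68.6 in KO (-0.78, SE 0.369), with overlapping genotypes in both.

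Eno1 was thus lower in the KO mean of all 6 types, with the lowest value in KO 2 each time, in cells with the deletion and in types it was not meant to reach. These values come from the same 6 animals and the types of 1 library were captured together, so they are not independent of each other. Pgk1 gave log2 fold changes of -0.05 in α, -0.08 in δ, -0.29 in endothelial, -0.36 in macrophage and -0.11 in stellate cells.

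**Figure D3:**
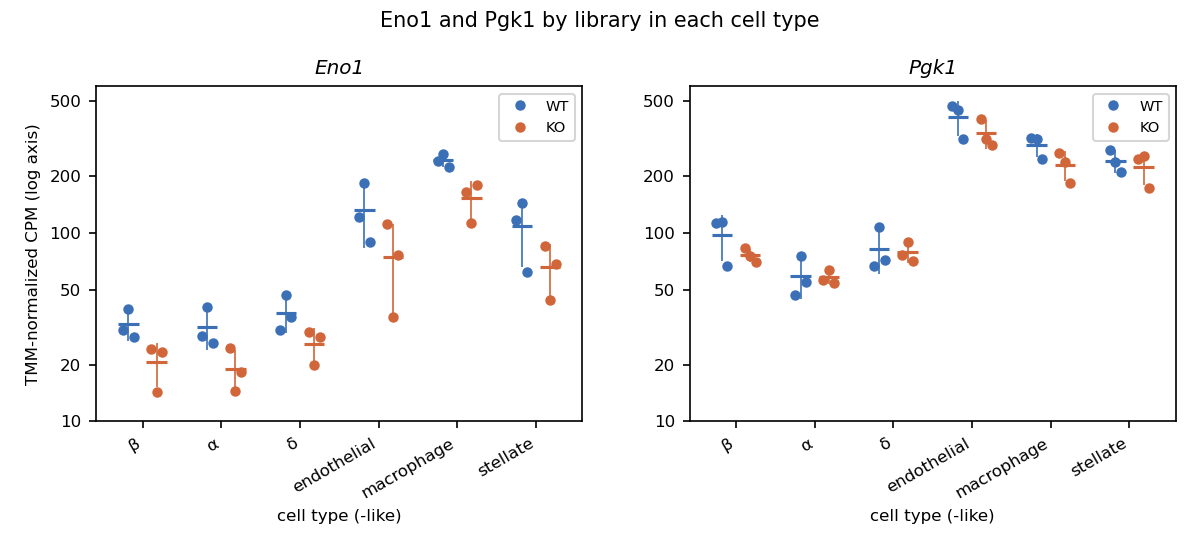
Eno1 (left) and Pgk1 (right) in each library and cell type, as TMM-normalised CPM on a log axis, with points for libraries coloured by genotype, horizontal lines at the mean and bars of 1 SD. For Eno1 the KO points lie below the WT points in β, α, δ and macrophage cells, and the lowest point of each type is KO 2; for Pgk1 the genotypes overlap in every type.

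A direct test of whether the KO–WT difference in β cells differed from that in α or δ cells called 0 of 38 members in either contrast (limma-voom with a genotype by cell type term), against 0.0103% and 0.01% of all genes, and 0 were at an unadjusted p under 0.05. For Eno1 the difference of the 2 log2 fold changes was 0.12 (SE 0.379) against α and -0.21 (SE 0.373) against δ cells. For Idh2 it was 0.27 (SE 0.137) against α cells and -0.12 (SE 0.142) against δ cells.

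Of the remaining members with an unadjusted p under 0.05 outside β cells, Gpd2 in endothelial cells stood at 29.4, 35.0 and 33.2 CPM in WT and 43.3, 60.9 and 51.7 in KO (0.68, SE 0.178, adjusted p = 0.964 by edgeR's quasi-likelihood test). All KO libraries were above all WT libraries. Gpd2 is much higher in β cells, and free RNA from β cells was measured through insulin. The median insulin share of UMIs in endothelial cells was 0.675, 5.02 and 2.43% in WT and 2.42, 8.29 and 4.31% in KO, highest in KO 2 as Gpd2 was. Its part in the Gpd2 difference was not tested. The others were Got1 in α cells (0.56), Idh2 in δ cells (0.30), Aco1 (0.56), Idh3g (0.31) and Me3 (-0.53) in endothelial cells, and Mdh1 (0.31), Cs (-0.40) and Pgk1 (-0.36) in macrophages, all as log2 fold changes.

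Between cell types the members differed far more than between genotypes. Both genotypes were used here, each library gave both types, and a member was called at an adjusted p under 0.05 with at least a 2-fold difference. Against the other endocrine cells few members passed. In β against α cells 2 of 38 tested members were higher, against 8.07% of all genes, and 1 was lower, against 5.58%. In β against δ cells 3 of 38 were higher, against 5.82%, and 1 was lower, against 7.89%. Against non-endocrine cells 7 members were higher and 3 lower than in endothelial cells (backgrounds 24.7% and 20.7%), 5 higher and 10 lower than in macrophages (25.1% and 20.7%), and 3 higher and 2 lower than in stellate cells (19.9% and 19.6%). The members' shares lay near these backgrounds or below them, and the 10 lower against macrophages were of 37 tested. Several of these members entered the test through 1 of the types alone, where they were high, and had to differ: Aldoc against α and δ cells, the single member lower there, Eno2 and Pfkm against the 3 non-endocrine types, and Me1 against macrophages. They are given below as levels, in CPM scaled within each pair of types, so that the β level of a gene varies with the pair.

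Fumarase and Gpd2 were each called higher in β cells than in 4 of the other 5 types. In β cells of the 6 libraries Fh1 stood at 80.7, 114, 83.2, 101, 151 and 101 CPM (WT 1 to 3, then KO 1 to 3, scaled over all types). In α cells it stood at 27.3, 44.9, 38.4, 42.0, 57.9 and 42.9 CPM, and no α value reached a β value. It was 1.17 higher than in α cells on the log2 scale (SE 0.0692, adjusted p = 3.66e-12), 1.44 higher than in δ cells, 1.19 than in endothelial cells and 1.42 than in macrophages, each in 6 of 6 libraries and called by edgeR's quasi-likelihood test. In stellate cells it averaged 56.8 ± 18.3 CPM against 105 ± 25.6 in β cells and was not called.

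Gpd2 was as high in α as in β cells and low elsewhere. Its levels were 124.7 ± 9.46 CPM in α and 120.9 ± 31.7 in β cells, 35.1 ± 9.56 in endothelial, 25.4 ± 11.4 in macrophage, 24.2 ± 7.26 in stellate and 22.2 ± 5.57 in δ cells. β and α cells did not differ beyond their spread. β cells were 2.22 higher than δ cells on the log2 scale (SE 0.112, adjusted p = 5.74e-12), 1.62 higher than endothelial cells, 2.06 than macrophages and 2.14 than stellate cells, each by edgeR's quasi-likelihood test and in 6 of 6 libraries.

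Mdh1, the cytosolic arm of the malate-aspartate shuttle, had its highest level in β cells. It averaged 231.5 ± 18.6 CPM there, 162.9 ± 9.56 in δ, 140.4 ± 19.6 in macrophage, 105.8 ± 35.1 in stellate, 104.6 ± 16.6 in α and 54.7 ± 13.2 in endothelial cells, and the β libraries did not overlap those of the next type. It was 1.92 higher than in endothelial cells (SE 0.0952, adjusted p = 2.34e-09, edgeR's quasi-likelihood test) and 1.00 higher than in α cells, where the value lies at the 2-fold limit and the call was lost with DESeq2, with types set by the dominant hormone of each cell, without a gene-poor β cluster and without WT 1. Got1, its partner in the shuttle, was 1.07 higher than in δ cells and 1.63 lower than in macrophages on the log2 scale.

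Across all 39 members, 9 were highest in β cells, and for 5 of these, Ogdh, Suclg1, Fh1, Idh2 and Mdh1, the β libraries did not overlap those of the next type. Macrophages had the highest level of 12 members, 7 of them without overlap, stellate cells of 7, endothelial cells of 5, and α and δ cells of 3 each. No member was lowest in β cells, whereas 12 were lowest in δ, 12 in endothelial and 10 in α cells. The 5 members highest and apart in β cells are 4 mitochondrial enzymes and Mdh1, and none is glycolytic. These ranks hold for the TMM scale over all types and were not taken on another scale. With hormone genes left out of the total and no TMM, 10 members were higher and 4 lower in β cells than in macrophages. Of the 7 members apart in macrophages, Aldoa, Gapdh, Me2 and Got1 were then no longer called.

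**Figure D4:**
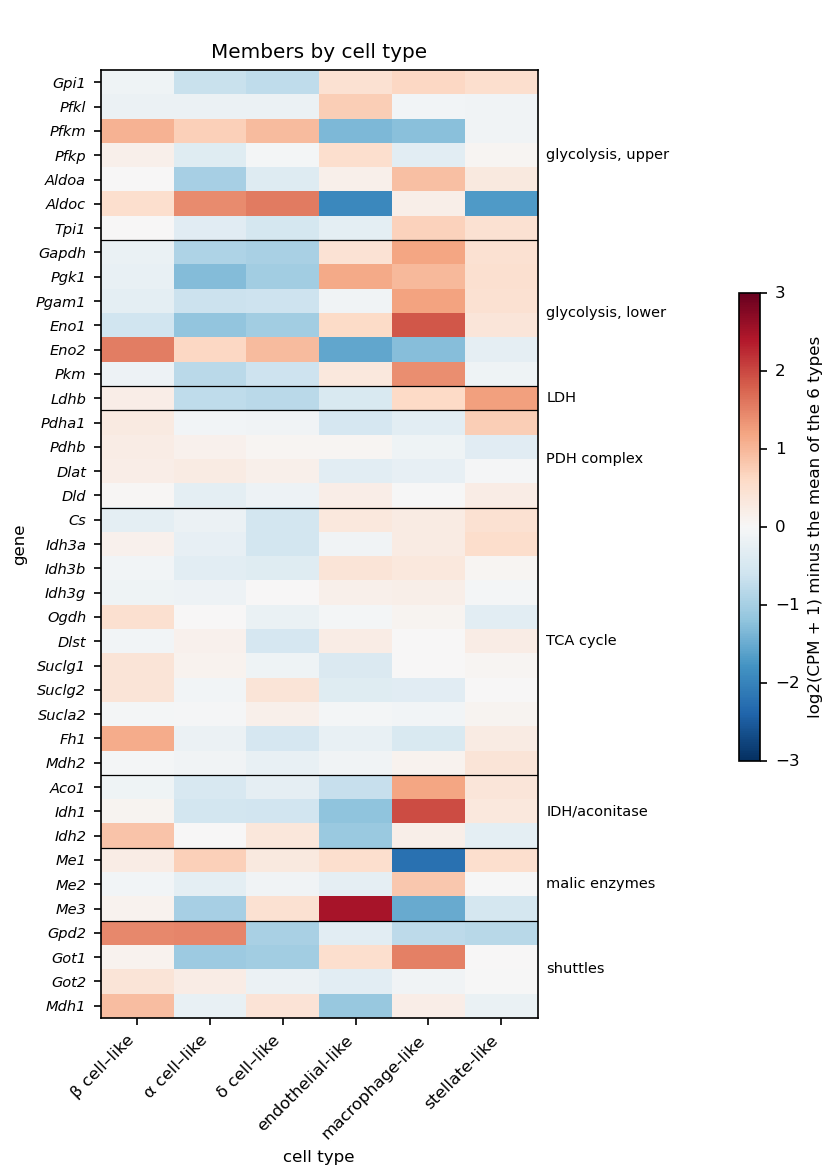
Level of each of the 39 members (rows, by role) in each of the 6 cell types (columns), coloured by log2(CPM + 1) minus the mean of the 6 types, with CPM averaged over the 6 libraries. CPM is on the TMM scale over all types, on which the ranks depend. Fh1, Gpd2, Idh2, Mdh1, Pfkm and Eno2 are red in the β column. Gapdh, Pgam1, Eno1 and Pkm are reddest in the macrophage column, where 12 members have their highest level.

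Of the 13 glycolytic members, 6 were lower in β cells than in macrophages and passed the test, beside 20.7% of all genes tested. Eno1 stood at 37.5 ± 11.5 CPM in β cells and 211 ± 60.3 in macrophages and was 2.70 lower in β cells on the log2 scale (SE 0.0756, adjusted p = 1.83e-13, edgeR's quasi-likelihood test). Pkm was 1.75 lower, Pgam1 1.71, Gapdh 1.59, Pgk1 1.40 and Aldoa 1.11, each in 6 of 6 libraries. Outside glycolysis Idh1 was 2.08 lower, Got1 1.63, Aco1 1.51 and Me2 1.13. When the library total was taken without hormone genes and without TMM, the median of all genes moved towards β cells, from 0.0232 to 0.725. Aco1, Gapdh, Aldoa, Me2, Got1 and Pgk1 were then no longer called, whereas Eno1, Pkm, Pgam1 and Idh1 were. In that setting 12.6% of all genes were lower in β cells. Gpd2 (2.06) and Fh1 (1.42) were higher in β cells. The Eno1 levels above are scaled over all types, whereas the log2 differences and the levels that follow are scaled within this pair of types. Levels in β cells and macrophages were 24.0 and 3.17 CPM for Eno2, 13.2 and 2.40 for Pfkm, and 28.9 and 5.30 for Me1.

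Endothelial cells were higher than β cells in Pgk1, by 1.53 on the log2 scale (SE 0.0605, adjusted p = 2.67e-10, edgeR's quasi-likelihood test), in Eno1 by 1.31 and in Pfkl by 1.08, and the calls of Eno1 and Pfkl were lost when hormone genes were left out of the total and TMM was not applied. β cells were higher in Mdh1 (1.92), Idh2 (1.81), Gpd2 (1.62), Fh1 (1.19) and Idh1 (1.16). Eno2 stood at 27.4 CPM in β and 2.70 in endothelial cells, and Pfkm at 15.1 and 2.46. Against stellate cells, β cells were higher in Gpd2 (2.14) and lower in Ldhb by 1.25, in 5 of 6 libraries, and in Eno1 by 1.22, and both lower calls were lost with hormone genes left out of the total and no TMM. Eno2 stood at 26.5 CPM in β and 8.19 in stellate cells, and Pfkm at 14.6 and 7.21. Aldoc was found in 13.1% of β cells, at 5.35 ± 0.902 CPM against 11.9 ± 3.70 in α cells.

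Ins2 was counted in α, δ and non-endocrine cells too. If all of it were free β cell RNA that carried the other β cell transcripts in the same ratio, such RNA would make up a median over libraries of 56.9% of the Eno2 and 53.5% of the Pfkm UMIs in endothelial cells, and 50.0% and 41.7% in macrophages, whereas for Eno1 the shares would be 2.25% and 0.988%. In stellate cells they would be 37.0% of Eno2, 40.2% of Gpd2 and 23.1% of Pfkm, in macrophages 38.1% of Me1 and 25.4% of Gpd2, and in endothelial cells 21.9% of Mdh1 and 21.2% of Idh2. In single libraries the share reached 127% for Eno2 and 132% for Pfkm in endothelial cells, and 111% for Pfkm in macrophages. These values exceed the UMIs counted, so the assumption overstates such RNA there. For Gpd2 the median and highest shares were 15.6% and 50.2% in endothelial cells, and 15.3% and 48.5% in δ cells. Mdh1 reached 49.5% in endothelial cells, and Fh1 19.8% in α and 20.5% in δ cells. None of the levels or differences above is corrected for such RNA.

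Where several genes encode 1 enzyme, their proportions varied with the cell type. Each 3′ library yields about 1 UMI per captured transcript whatever its length, so shares of UMIs between genes were read without scaling by length. Phosphofructokinase UMIs in β cells were 40.5 ± 3.31% Pfkl, 39.4 ± 2.15% Pfkp and 20.1 ± 3.41% Pfkm, and α and δ cells had 18.4% and 19.8% Pfkm. In endothelial cells and macrophages Pfkm made up 2.25 ± 1.41% and 4.08 ± 2.10%. In stellate cells, with few UMIs, it made up 9.77%.

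Enolase varied in a similar way. Eno1 held 53.5 ± 6.74% of the Eno1 and Eno2 UMIs in β cells, 59.6% in α and 56.4% in δ cells, but 96.0 ± 2.91% in endothelial cells, 98.1 ± 2.04% in macrophages and 89.2 ± 5.63% in stellate cells. In β cells the Eno1 share was 54.3, 64.6 and 54.1% in WT and 49.3, 44.3 and 54.2% in KO libraries, with overlap between the genotypes.

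Of the NADP-linked isocitrate dehydrogenases, mitochondrial Idh2 held 73.4 ± 1.95% of the UMIs in β cells and 32.2 ± 5.29% in macrophages, where cytosolic Idh1 led. Malic enzyme UMIs in β cells were 62.9 ± 2.36% Me1, 33.6 ± 1.93% Me2 and 3.43 ± 0.534% Me3. Macrophages turned this around, with 86.4 ± 2.43% Me2, and Me3 was seen mainly in endothelial cells, at 18.5 ± 3.78%. Mdh1 held 63.0 ± 1.43% of malate dehydrogenase UMIs in β cells, 44.1 ± 3.04% in α and 29.2 ± 3.45% in endothelial cells.

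**Figure D5:**
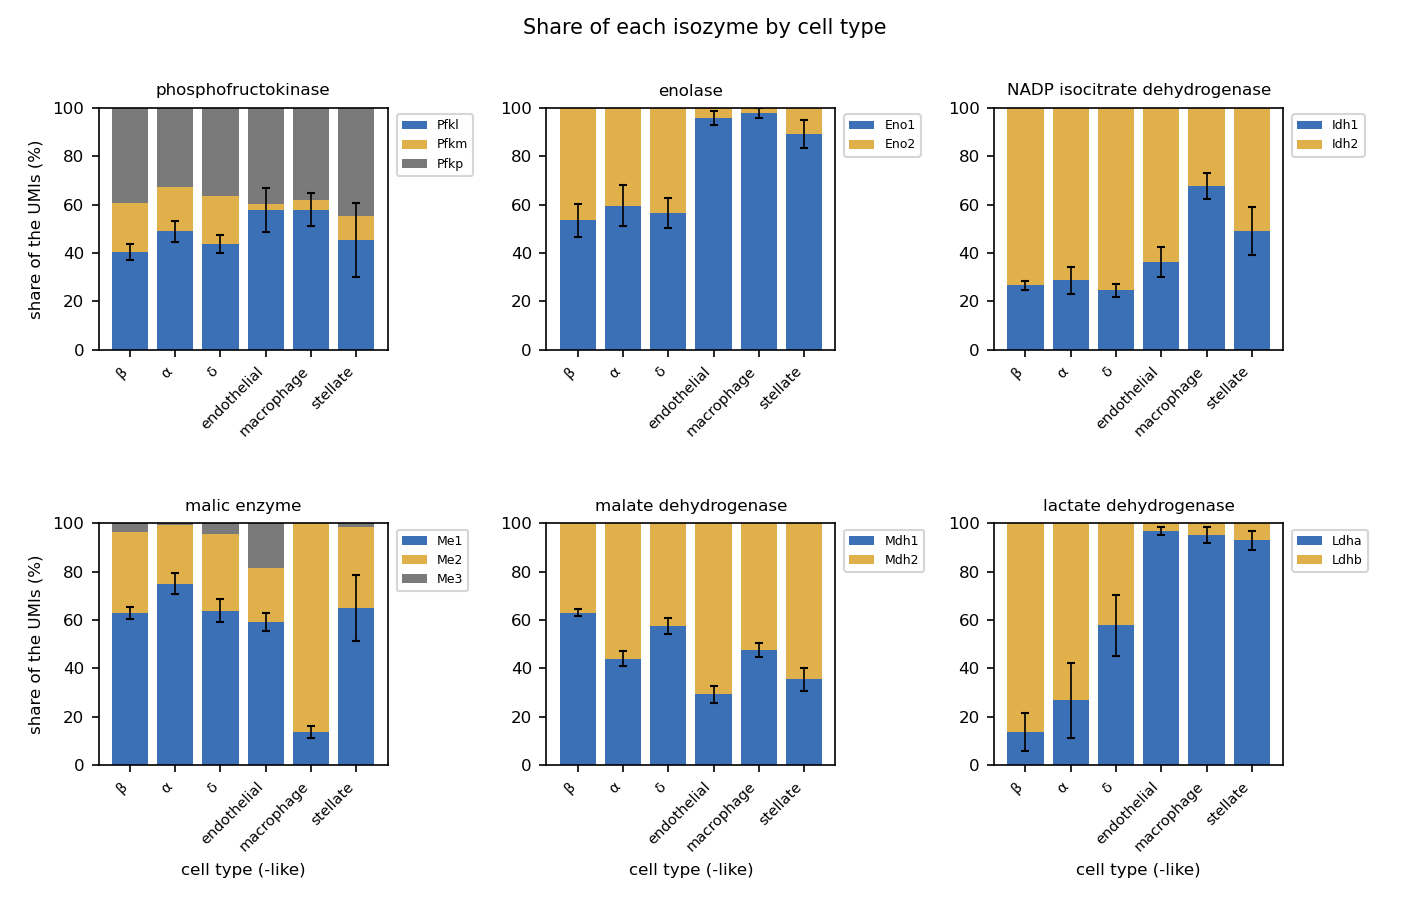
Share of UMIs (vertical axis, percent) of the genes that encode the same enzyme in each cell type, as stacked bars of means over the 6 libraries, with SD shown for the lowest segment. Eno1 and Ldha hold smaller shares in endocrine than in non-endocrine cells, with Eno1 at 53.5% and Ldha at 13.7% in β cells against 98.1% and 95.1% in macrophages.

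Lactate dehydrogenase gave the widest gap. Ldha, which favours lactate formation and is not a member, averaged 2.13 ± 1.36 CPM in β, 2.43 ± 2.07 in α and 8.63 ± 4.18 in δ cells against 236.0 ± 69.2 in endothelial, 353.7 ± 92.1 in macrophage and 339.6 ± 60.8 in stellate cells. Ldhb held 86.3 ± 7.93% of the UMIs of both in β cells and 3.27 ± 1.64% in endothelial cells. In the endocrine types Ldha held 13.7 ± 7.93% in β, 26.7 ± 15.6% in α and 57.8 ± 12.7% in δ cells. The α and δ shares rest on few UMIs of both genes, 4 to 37 per library in α and 16 to 46 in δ cells, against 269 to 416 in β cells. The Ldha share in β cells varied with the library, at 20.9, 22.4 and 5.48% in WT and 13.0, 17.1 and 3.32% in KO, lowest in replicate 3 of both genotypes. Ldha was found in 2.88% of β cells and 71.0% of endothelial cells.

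Of the pathway genes that are not members, 4 of 28 tested were higher and 3 lower in β than in α cells. Against δ cells 6 and 1 of 27 were, with shares over all genes of 5.82% and 7.89%, beside 8.07% and 5.58% against α cells. The counts were 11 and 5 of 29 against endothelial cells (24.7% and 20.7% of all genes) and 8 and 10 of 31 against macrophages (25.1% and 20.7%). Against stellate cells they were 8 and 2 of 28 (19.9% and 19.6%). Many of the called pathway genes were detected above the filter in 1 of the types alone and had to differ, and those are given as levels. CPM is again scaled within each pair of types. Pcx, pyruvate carboxylase, which feeds oxaloacetate into the cycle, was 2.11 higher than in α cells on the log2 scale, at 48.2 against 11.1 CPM, and stood at 51.3 against 6.37 CPM in δ cells. Acly, which cleaves exported citrate, was also higher than in each type, by 1.09 to 2.78, at 1093 ± 163 CPM against 338 ± 70.8 in α cells. Pdk4 stood at 0.446 CPM in β and 75.7 in α cells, and Fbp1, a gluconeogenic phosphatase, at 7.31 and 69.9 CPM. The lactate transporter Slc16a3 had 19 UMIs in all β cells and 1241 in endothelial cells.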

How the data were processed

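Islet cells of 6 mice, 3 WT and 3 β14-3-3ζ–KO, were captured with a 10x 3′ kit, 1 library per mouse. The authors aligned the reads to mm10 (GRCm38) and counted UMIs per gene and barcode with Cell Ranger 6.0.2, per the submitters' processing notes, which also name Seurat without a version. The deposited values are raw UMI counts. Groups follow the genotype in the labels.

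From 43445 barcodes, those with fewer than 500 genes (3485) or more than 10% mitochondrial UMIs (12956) were removed, and then the barcodes with the highest Scrublet scores at 0.8% per 1000 barcodes (1797). The 25207 cells left were clustered on 2000 variable genes, 30 principal components and 15 neighbours (Leiden, resolution 1), with the members, the pathway list, Ywhaz, insulin, mitochondrial and ribosomal genes left out of the variable genes. A cluster took a type's name if 3 or more of that type's markers each reached 10% of the cells and 1.5-fold enrichment. Its median had to be 3500 or more UMIs, and no other type could have more markers among its top 10 genes. In endocrine clusters the most common dominant hormone had to be that of the type. Each of their cells kept the name only if its own dominant hormone matched, and Ppy-led cells in α clusters were named apart. Cells are not replicates, and sums of counts over the cells of a type in a library were used, each from 20 or more cells. Genes detected in over 15% of cells of either group entered edgeR's quasi-likelihood test with TMM scaling, without a block between genotypes and with the library as a block between cell types. The genotype by cell type term was tested with limma-voom. Calls needed a Benjamini-Hochberg adjusted p under 0.05 and a log2 fold change beyond 0.1 between genotypes or beyond 1 between types, in either direction. p-values measure the spread between these libraries, and with 3 against 3 libraries an exact permutation test of 1 gene cannot go below 0.1.

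The members and lists were chosen with earlier results of these data known. Every member is given its levels in β cells, values in each library are given for the rate-controlling enzymes and for the 6 members of lowest p, and the 5 largest called members in each direction are given between types. Libraries that share replicate numbers across genotypes were checked for pairing by the correlation of their deviations from the group means over genes. It was 0.54, 0.48 and 0.22 in β cells and 0.25, 0.34 and 0.14 in macrophages. In α cells it was 0.27, 0.19 and 0.095, and in δ cells 0.18, 0.14 and 0.035. Endothelial cells had 0.42, 0.41 and 0.088, and stellate cells 0.30, 0.51 and -0.13. Promoters came from RefSeq for GRCm38.p6. Of 32285 gene identifiers 32235 matched the annotation. Scripts were tested on simulated data. Versions were Python 3.11.15, scanpy 1.11.5, scikit-learn 1.9.0, R 4.3.3, edgeR 4.0.16, limma 3.58.1 and DESeq2 1.42.0.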

Additional observations from a re-analysis of the deposited data

How the results depend on the processing

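In β cells 0 members were called under each alternative that gave a value (DESeq2, no filter, the replicate block, other cell filters, each library left out). Of 255 recomputed log2 fold changes of single members in β cells, 232 kept their direction and side of the threshold and 23 changed sign, each of a value that was not called. Idh3a became 0.039 with all KO cells, 0.023 at no more than 5% mitochondrial UMIs and 0.12 with KO cells that held a Ywhaz UMI, an alternative chosen after seeing the data. Gapdh became -0.0021 without a filter, -0.012 when types were set by dominant hormone share, -0.0057 at 5% mitochondrial UMIs, -0.0062 with 2 times the doublets and -0.0057 without the gene-poor β cluster, also chosen after seeing the data. Pdha1 became -0.0079 by hormone share and -0.0014 at resolution 2, and Ogdh 0.10 at 5% mitochondrial UMIs. The causes were not tested. The median over members lay on either side of 0, from -0.0324 to 0.0381 with 1 library left out. With 1 library left out, the range was -0.15 to 0.19 for Gapdh, -0.28 to 0.11 for Pfkp, -0.093 to 0.091 for Pdha1, -0.11 to 0.052 for Idh3a, -0.053 to 0.037 for Ogdh, -0.014 to 0.18 for Pkm, -0.57 to -0.24 for Pgk1, 0.04 to 0.47 for Gpd2 and -0.79 to -0.46 for Eno1.

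In macrophages the replicate block called 1 member, Eno1, as did leaving out the filter, which also called 1 in endothelial cells, again Eno1. In α, δ, endothelial and stellate cells the block called 0, although same-numbered libraries also correlated in α, δ and endothelial cells (0.035 to 0.42). The block changed no other call.

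Against α cells, members higher in β cells numbered 4 without a filter, 5 in WT libraries alone, where 0 were lower, and 1 by hormone share. With hormone genes left out of the total and no TMM, 1 was lower against endothelial cells, 10 were higher and 4 lower against macrophages, and 6 were higher and 0 lower against stellate cells. Without a filter 6 were higher and 0 lower against stellate cells. With 1 library left out, the count higher ran from 1 (without WT 1) to 3 against α cells and from 2 to 5 (without KO 2) against stellate cells, and the count lower against stellate cells from 2 to 4 (without WT 2, WT 3 or KO 3). Stellate cells were few, at 20 to 100 per library.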

Other observations

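One cluster of 534 β cells, 35 to 192 per library, was poor in genes, with a median of 2397 genes and 30962 UMIs per cell. Levels of the members there differed from those of the other β cells and are given as means over the 6 libraries. No test was run, because the clusters were defined on these cells. The CPM values are scaled between the gene-poor and the other β cells and are not unscaled CPM. Fold differences and directions, those of Mdh1 and Dld included, can depend on that scaling. Me1 stood at 5.53 against 17.3 CPM, Idh1 at 6.79 against 18.5, Aco1 at 2.62 against 9.60 and Pfkp at 5.90 against 15.9, each lower in 6 of 6 libraries. Gpd2 stood at 25.5 against 54.7 CPM and Ogdh at 31.7 against 58.9. Mdh1 went the other way, at 183 against 100.2 CPM, as did Dld, at 33.2 against 23.0, each higher in 6 of 6 libraries.

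KO β cells that still held a Ywhaz UMI, which the comparison leaves out, gave 0 called members against WT by edgeR's quasi-likelihood test and 1 at an unadjusted p under 0.05. DESeq2 was not run on these cells.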
